A study of Mus musculus with 7 samples.

Results

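The genes described here are Trp53, which encodes the transcription factor p53, and 9 genes known as targets of p53 (Mdm2, Cdkn1a, Ccng1, Phlda3, Eda2r, Sesn1, Zmat3, Aen and Bbc3). They were matched by symbol, 1 identifier per gene, and are 10 of the 55414 Ensembl gene identifiers in the count table. All 10 passed the filter on low counts and are among the 14329 genes tested. The data are bulk RNA-seq counts of purified Paneth cells (PCs), the granule-bearing secretory cells at the crypt base of the small intestine, sorted from C57BL/6J mice. There were 3 libraries from mice injected with phosphate-buffered saline (PBS, the control) and 4 from mice injected with tumour necrosis factor (TNF), a pro-inflammatory cytokine, all taken 15 h after the injection. The labels number the libraries as replicates but do not tie them to mice, so p-values measure the spread between these libraries, which may be partly technical. The mice were not described as carrying any engineered allele, and the sources used here give neither their age or sex nor the dose of TNF.

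p53 is held at a low level in resting cells because the ubiquitin ligase MDM2, itself a product of a p53 target gene, marks it for degradation. After DNA damage or other stress p53 is stabilized and binds DNA as a tetramer, and its targets then act on cell cycle arrest, DNA repair, metabolism and apoptosis. Most of this control is on the p53 protein, which RNA counts do not measure. In the intestinal crypt, p53 is known for its role in the response of the epithelium to radiation.

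Total counts per library ran from 15511455 to 19193721, and the members had between 68 counts (Phlda3) and 6894 counts in a library. Levels are CPM, counts divided by library size on a scale of 1000000, with library sizes adjusted by edgeR's TMM method and fold changes are TNF over PBS. The PC markers fixed for the label check were present in every library, with a summed level of 167000 to 268000 CPM after PBS and 160000 to 287000 CPM after TNF. The erythroid genes Hbb-bs, Hba-a1 and Hba-a2 and the T cell genes Cd3e and Cd3d had 0 counts in all 7 libraries. Of these 9 markers, 2 were higher after TNF (Pla2g2a and Mmp7, log2 fold changes 1.90 and 0.88) and 2 lower (Clps and Pnliprp2, -2.27 and -1.39) by edgeR's test, which called 59.6% of all tested genes. Other marker lists moved with the treatment and are given together further below.

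The promoter sequences of the members are shown first, because the genes share a regulator that binds DNA at a known element. The p53 response element is built of 10-base units, called p53 decamers here, and a pair of them separated by 0 to 13 bases is a full site. The decamer consensus reads the same on both strands, and only exact matches to it were counted. NF-kB, the main transcription factor downstream of TNF, binds a 10-base consensus called kappaB, which was searched on both strands. Both searches were chosen after the expression values were seen. RefSeq promoter windows of 300 bases (build GRCm38.p6, 250 bases before the annotated start site and 50 from it on) were found for 9 of the 10 members, 14 windows in all, and Zmat3 had no entry.

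A p53 decamer lay in at least 1 window of 6 of these 9 genes (Trp53, Mdm2, Cdkn1a, Ccng1, Sesn1 and Aen), or in 7 of the 14 windows (50%). Among all 32851 windows in the table, 8.36% held one, and among 35 windows of other genes described as p53 targets 6 did (17.1%). A full site was present in 1 window of the members, the upstream window of Cdkn1a, in 0 windows of those other targets and in 24 windows of the whole table (0.0731%). kappaB matches were found in 2 of the 14 windows, those of Trp53 and Bbc3, against 4.51% of all windows. Windows of 1 gene can overlap, and both Aen windows hold the same decamer. A match describes these letters only and does not show that a factor binds there.

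The 4 windows below are those of Trp53 itself, of the rising targets Mdm2 and Cdkn1a, and of Ccng1, the most abundant member after PBS. They are written 5′ to 3′ on the strand of the gene. Capitals mark p53 decamers, except the second capital run of Trp53, GGGACTTTCC, which is the kappaB match and spans the start site.
Trp53, chr11:69580109-69580408, plus strand: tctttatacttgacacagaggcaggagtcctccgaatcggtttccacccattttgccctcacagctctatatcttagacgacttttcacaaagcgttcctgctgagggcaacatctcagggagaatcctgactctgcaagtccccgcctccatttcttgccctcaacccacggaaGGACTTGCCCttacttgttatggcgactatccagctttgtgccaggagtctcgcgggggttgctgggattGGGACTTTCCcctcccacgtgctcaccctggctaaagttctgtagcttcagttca
Mdm2, chr10:117710709-117711008, minus strand: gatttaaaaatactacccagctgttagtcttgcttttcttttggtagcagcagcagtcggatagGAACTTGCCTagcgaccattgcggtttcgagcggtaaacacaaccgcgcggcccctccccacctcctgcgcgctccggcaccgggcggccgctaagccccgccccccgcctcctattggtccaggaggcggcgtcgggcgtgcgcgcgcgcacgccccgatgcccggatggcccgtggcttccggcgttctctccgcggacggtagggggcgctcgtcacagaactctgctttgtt
Cdkn1a, the upstream one of 2 start sites, chr17:29090729-29091028, plus strand: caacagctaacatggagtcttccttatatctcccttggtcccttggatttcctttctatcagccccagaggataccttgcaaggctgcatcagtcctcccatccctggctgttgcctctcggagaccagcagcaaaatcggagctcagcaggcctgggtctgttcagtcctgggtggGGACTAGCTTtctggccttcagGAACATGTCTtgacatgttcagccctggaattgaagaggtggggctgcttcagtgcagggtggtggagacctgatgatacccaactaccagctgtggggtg
Ccng1, chr11:40755237-40755536, minus strand: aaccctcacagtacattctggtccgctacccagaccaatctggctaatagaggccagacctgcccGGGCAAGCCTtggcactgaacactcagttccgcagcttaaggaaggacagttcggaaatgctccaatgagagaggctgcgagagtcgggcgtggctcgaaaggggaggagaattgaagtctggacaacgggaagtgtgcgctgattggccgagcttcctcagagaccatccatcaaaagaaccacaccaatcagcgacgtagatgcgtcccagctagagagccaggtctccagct

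The Cdkn1a window shown belongs to the start site 2790 bases upstream of the other one, whose window held no decamer. Its exact decamers, GGACTAGCTT and GAACATGTCT, are 12 bases apart, and this pair is the full site counted above. GAACATGTCT is followed without a gap by tgacatgttc, which misses the consensus at its opening base and was not counted. A site made of these adjoining units is therefore not marked, and which pair p53 binds was not tested. The decamers of the other windows were GGGCTTGTCC in Aen and AAGCTTGTTT in the downstream window of Sesn1. The windows of Phlda3, Eda2r and Bbc3 held no exact match. Units with a mismatch, or cut by the end of a window, were not counted. These 3 genes are therefore not shown to lack a p53 element.

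**Figure D1:**
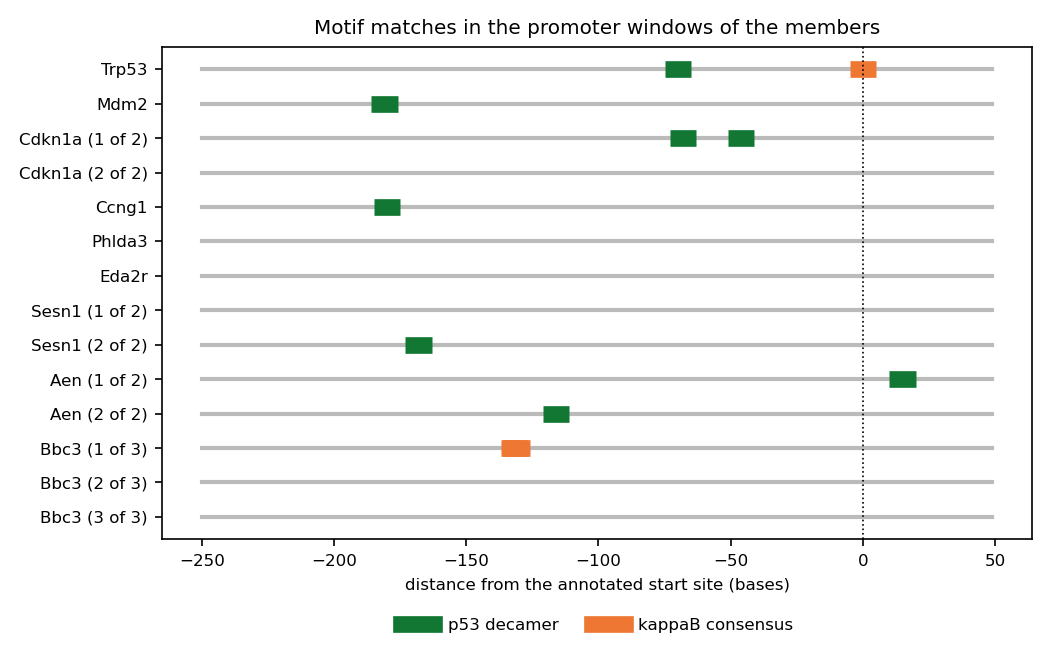
Positions of p53 decamers (green) and kappaB matches (orange) in the 14 promoter windows of 9 members, with the distance from the annotated start site in bases on the x axis and 1 grey line per window. Decamers lie in 7 windows, and only the Trp53 and Bbc3 windows hold a kappaB match.

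After TNF, the p53 gene and its targets did not move as a block. Of the 10 members, 4 rose (Cdkn1a, Phlda3, Mdm2 and Aen), 4 fell (Eda2r, Trp53, Ccng1 and Sesn1) and 2 did not pass the test (Zmat3 and Bbc3), by edgeR's quasi-likelihood test at a Benjamini-Hochberg adjusted p under 0.05. Over all tested genes, 59.6% were called, 29.5% as higher and 30.1% as lower, so that calls in both directions are common in these libraries. The median log2 fold change of the members was -0.05, and that of all tested genes was 0.0017. CPM values of the groups did not overlap for 9 of the 10 members, against 60.7% of all tested genes.

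Trp53 (ENSMUSG00000059552, GRCm39 chr11:69469669-69482701, plus strand) was lower after TNF. It had 31.1, 35.6 and 32.5 CPM in the PBS libraries and 12.7, 17.5, 18.5 and 12.8 CPM in the TNF libraries. Every TNF library was below every PBS library. The PBS mean was 33 ± 2.3 CPM (SD, n = 3) and the TNF mean 15.4 ± 3.04 CPM (SD, n = 4). On the log2 scale this change was -1.10 ± 0.15 (SE, edgeR adjusted p = 3.02e-05). Of its annotated exon bases, 3.56% are shared with the opposite-strand gene Wrap53, which had a log2 fold change of 0.15 (edgeR adjusted p = 0.575), and whether counting used strand is not known.

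Mdm2 (ENSMUSG00000020184, GRCm39 chr10:117524780-117546730, minus strand), the gene of the ligase that degrades p53, moved the other way. Its levels were 46.5, 51.2 and 44.9 CPM after PBS and 89.5, 107, 102 and 113 CPM after TNF. All TNF values lay above all PBS values, and the change on the log2 scale was 1.11 ± 0.11 (SE, edgeR adjusted p = 1.25e-06).

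Cdkn1a (ENSMUSG00000023067, GRCm39 chr17:29309936-29319701, plus strand) encodes p21, an inhibitor of cyclin-dependent kinases that halts the cell cycle, and showed the largest rise among the members. It had 83.9, 112 and 88 CPM after PBS and 246, 363, 369 and 327 CPM after TNF. The lowest TNF library was still above the highest PBS library. The log2 fold change was 1.79 ± 0.16 (SE, edgeR adjusted p = 4.96e-07), or 3.45-fold.

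Since Trp53 fell and both Mdm2 and Cdkn1a rose, their counts were set against each other within each library, which needs no scaling between libraries. This comparison was chosen after the values were seen. The Mdm2 count was 1.5, 1.44 and 1.38 times the Trp53 count after PBS and 7.05, 6.09, 5.54 and 8.8 times after TNF, with means of 1.44 ± 0.0573 (SD, n = 3) and 6.87 ± 1.43 (SD, n = 4). The Cdkn1a count was 2.85 ± 0.257 times the Trp53 count after PBS (SD, n = 3) and 21.4 ± 2.78 times after TNF (SD, n = 4). Both ratios were higher in 4 of 4 TNF libraries than in any PBS library. Since the groups of all 3 genes already did not overlap, with Trp53 lower and the others higher, this separation follows from the levels above. An exact permutation test of the ratios could then return only its smallest p and is not given as support.

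Ccng1 (ENSMUSG00000020326, GRCm39 chr11:40639377-40646148, minus strand), which encodes cyclin G1, a partner of a protein phosphatase that acts on MDM2, fell. It had 309, 266 and 240 CPM after PBS and 136, 134, 152 and 173 CPM after TNF. The ranges did not meet, and the log2 fold change was -0.87 ± 0.12 (SE, edgeR adjusted p = 3.23e-05). The opposite-strand neighbour Nudcd2 shares 2.59% of the annotated Ccng1 exon bases and was not called (log2 fold change 0.29, edgeR adjusted p = 0.195).

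Eda2r (ENSMUSG00000034457, GRCm39 chrX:96320270-96420847, minus strand), the gene of a death-domain-free receptor for ectodysplasin A2 in the TNF receptor family, showed the largest fall among the members. Its levels were 31.1, 24.3 and 30.2 CPM after PBS and 10.2, 6.84, 6.37 and 12.2 CPM after TNF. All TNF libraries were below all PBS libraries, and the change on the log2 scale was -1.68 ± 0.21 (SE, edgeR adjusted p = 1.32e-05). Of 4 tested genes of the ligand and partners of this receptor or of the related receptor EDAR, 3 rose and 1 fell. Of all tested genes, 59.6% were called. The ligand gene Eda had a log2 fold change of 1.31 ± 0.38 (edgeR adjusted p = 0.0082) at no more than 4.76 CPM in a library, and was not called under scaling by total counts (1.12). The signalling adaptor gene Traf6 rose from 45.1 to 131 CPM on average, a log2 fold change of 1.54 ± 0.11 (edgeR adjusted p = 7.11e-08). Edaradd, the adaptor of the related receptor EDAR, fell by 0.84 on the log2 scale (edgeR adjusted p = 0.00235), and Edar itself had 2 counts over all libraries. Traf3 rose by 0.28 on the log2 scale (edgeR adjusted p = 0.0435), and it was not called in refits that left out PBS replicate 1 (0.27), 2 (0.25) or 3 (0.30), or TNF replicate 1 (0.20) or 3 (0.25), under scaling by total counts (0.12) or with no filter on low counts (0.28).

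Phlda3 (ENSMUSG00000041801, GRCm39 chr1:135693809-135697686, plus strand) encodes a pleckstrin-homology protein that restrains the kinase AKT. It was a low-level gene, at 4.2, 5.29 and 5.14 CPM after PBS and 9.85, 11.3, 9.58 and 16.8 CPM after TNF. All TNF values lay above the PBS values, with the fourth TNF library the highest. The log2 fold change was 1.28 ± 0.23 (SE, edgeR adjusted p = 0.000336).

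Sesn1 (ENSMUSG00000038332, GRCm39 chr10:41685931-41784423, plus strand) encodes sestrin 1, which restrains the growth kinase complex mTORC1. It fell from 12.9, 12.8 and 15.2 CPM after PBS to 10.5, 6.95, 8.94 and 8.83 CPM after TNF. The groups did not overlap, but the gap between them was small, and the log2 fold change was -0.63 ± 0.18 (SE, edgeR adjusted p = 0.0081). Of its annotated exon bases, 10.9% are shared with the opposite-strand gene Cep57l1, which also fell (log2 fold change -1.44, edgeR adjusted p = 0.00402), and without strand the counts of such a pair cannot be fully told apart.

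Aen (ENSMUSG00000030609, GRCm39 chr7:78545602-78560957, plus strand) encodes a nuclease that takes part in apoptosis. It had 19.5, 22 and 24.4 CPM after PBS and 28.8, 31.4, 27.8 and 34.9 CPM after TNF, without overlap. The log2 fold change was 0.48 ± 0.13 (SE, edgeR adjusted p = 0.00574). With scaling by total counts only it was 0.29 and no longer called.

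Bbc3 and Zmat3 were not called. Bbc3 (ENSMUSG00000002083, GRCm39 chr7:16042318-16052130, plus strand) encodes PUMA, a BH3-only activator of mitochondrial apoptosis, and had 13.2, 12.8 and 12.6 CPM after PBS against 8.34, 10.3, 11 and 11.9 CPM after TNF. Each TNF value was below each PBS value, but the log2 fold change of -0.31 ± 0.17 (SE) had an edgeR adjusted p of 0.133. It was -0.48 and called under scaling by total counts. Zmat3 (ENSMUSG00000027663, GRCm39 chr3:32388941-32420163, minus strand) encodes a zinc finger protein that binds RNA. Its levels were 68.1, 66.4 and 73.2 CPM after PBS and 90.2, 81.9, 77.8 and 70.9 CPM after TNF, which overlap. Its log2 fold change was 0.21 ± 0.11 (SE, edgeR adjusted p = 0.099).

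**Figure D2:**
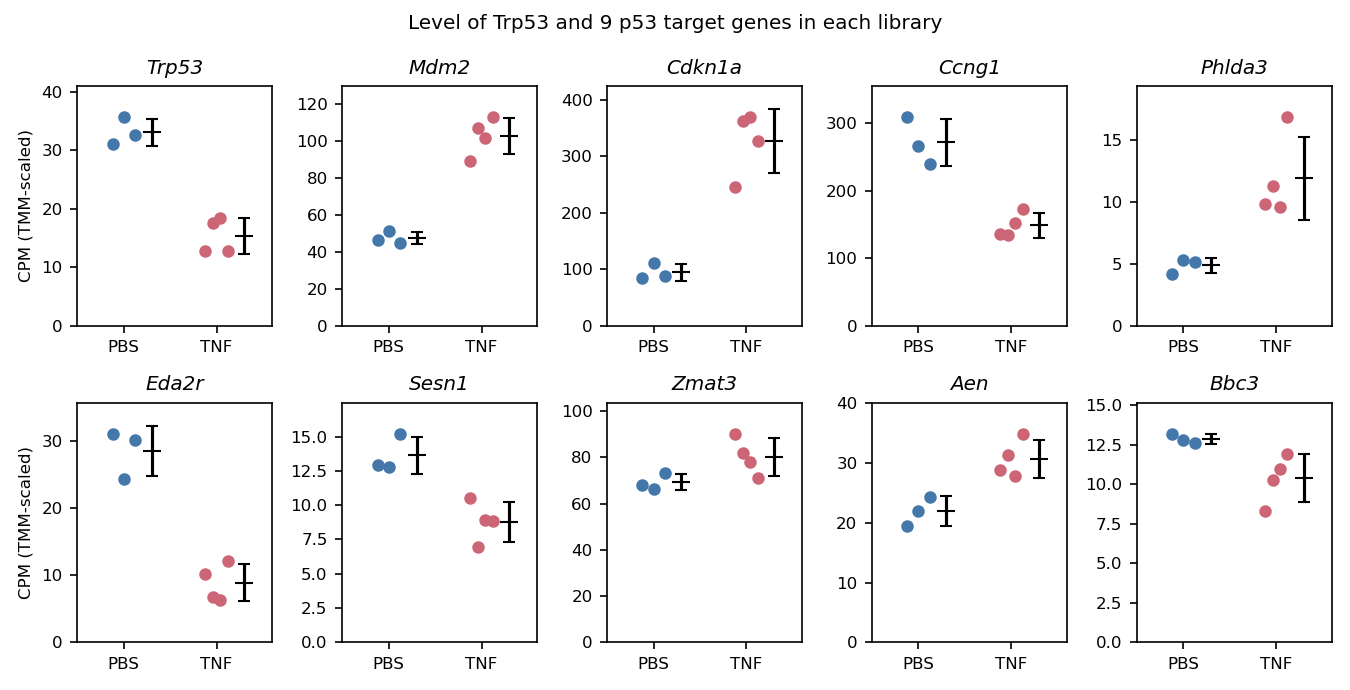
CPM of each member in each library, 1 panel per gene with its own y axis from 0, where points are libraries (3 PBS in blue, 4 TNF in red) and black marks show the group mean and SD. Trp53, Ccng1, Eda2r and Sesn1 sit lower after TNF, Mdm2, Cdkn1a, Phlda3 and Aen sit higher, and only the Zmat3 groups overlap.

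**Figure D3:**
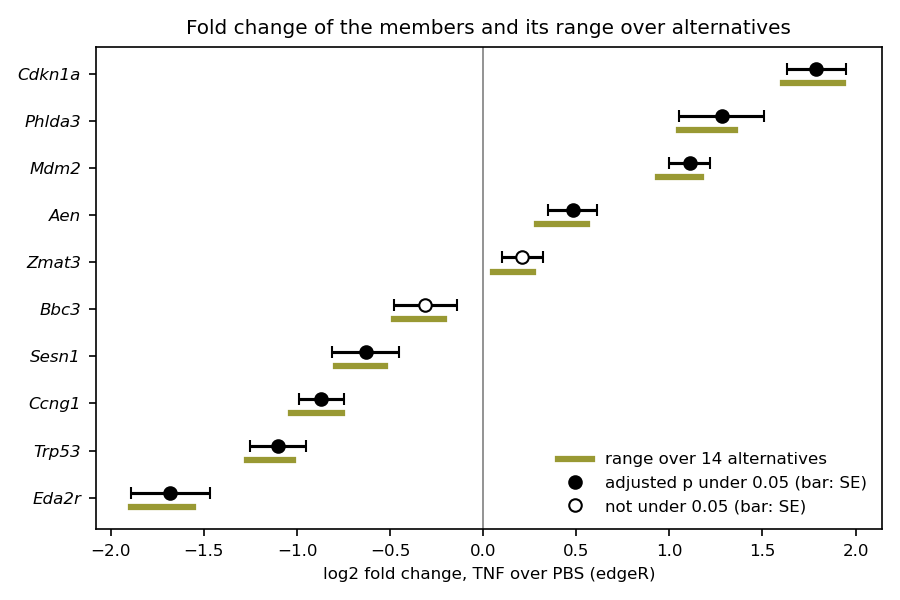
Log2 fold change (TNF over PBS, x axis) of each member with its SE, filled where the edgeR adjusted p is under 0.05, and in olive its range over 14 alternative settings. No member changes sign, with Cdkn1a between 1.61 and 1.93 and Eda2r between -1.89 and -1.56.

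To compare members with each other, levels were divided by annotated exon length (CPM per kilobase, summed exons of GENCODE M39). After PBS, Ccng1 stood first at 61.8 ± 8.02 CPM per kilobase (SD, n = 3), followed by Cdkn1a at 15.7 ± 2.52. Mdm2 (6.17) and Zmat3 (6.05) came next with overlapping ranges, and Trp53 followed at 4.48 and Eda2r at 3.81. Sesn1 (2.7) and Bbc3 (2.68) overlapped, as did Aen (1.94) and Phlda3 (1.89). After TNF the order was led by Cdkn1a at 54 ± 9.38 CPM per kilobase (SD, n = 4), above Ccng1 at 33.7 ± 4.11 and Mdm2 at 13.3 ± 1.28. Zmat3 (7.01) and Phlda3 (4.59) overlapped. Trp53 was then at 2.08 CPM per kilobase, and neighbours in the order from Aen (2.71) through Bbc3 (2.17), Trp53, Sesn1 (1.75) and Eda2r (1.19) had overlapping ranges.

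The genes with a pattern most like that of Trp53 across the 7 libraries were Myo7a (Pearson r = 0.994 on log2 of CPM + 1), Spef1 (0.991) and Eci1 (0.991), all lower after TNF. This describes little beyond the difference between the groups, since 1163 of 8430 genes averaging 10 CPM or more had an r above 0.9.

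Levels of other cell types' markers moved in the same comparison, in which 30.1% of all tested genes were lower and 29.5% higher. Stem cell markers were lower after TNF for 7 of 8 genes, with a summed level of 3830 to 5160 CPM after PBS and 2040 to 2790 CPM after TNF. Tuft cell markers were lower for 6 of 6 genes (1400 to 2310 against 264 to 674 CPM). Of the enterocyte markers, 6 of the 7 tested were lower (724 to 896 against 255 to 327 CPM summed over all 9). Most of that sum was Vil1, at 562 to 637 CPM after PBS and 235 to 308 CPM after TNF. Apoa1, Apoa4 and Lct were highest in PBS replicate 2, at 22.1, 8.5 and 10.2 CPM. Of the goblet cell markers, 4 of 7 were lower (11200 to 20600 against 9170 to 10500 CPM). The enteroendocrine markers were lower for 3 of 8 genes (49.1 to 117 against 22.5 to 33.1 CPM). The leukocyte markers summed to 24.2 to 31.9 CPM after PBS and 18.4 to 28.4 CPM after TNF, with 1 of 4 tested genes higher and 1 lower. The riser was S100a9, a neutrophil marker, with 0 counts in every PBS library and 5.76, 6.84, 3.21 and 7.85 CPM in the TNF libraries. Ptprc fell (log2 fold change -0.95, edgeR adjusted p = 0.027), and Lyz2 (-0.23) and Itgam (0.14) were not called. The stromal and endothelial markers summed to 2.39 to 2.72 and 7.98 to 9.91 CPM, nearly all of it Vwf, which was the only tested gene of this list and rose (log2 fold change 1.89, edgeR adjusted p = 9.9e-06), and the erythroid markers stayed at or under 0.236 CPM. In bulk samples, fewer cells of a type and less RNA per cell cannot be told apart, and the part of these cell types in the changes of the members was not tested.

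The relatives of p53 were hardly detected. Trp63 had 0 counts in every library, for which an expected count of up to 3 per library is possible at 95% confidence, and Trp73 had 2 counts in PBS replicate 3, 1 in TNF replicate 3 and 0 elsewhere. Mdm4, which encodes the partner of MDM2 that blocks p53, fell by 0.41 on the log2 scale (edgeR adjusted p = 0.0358) where Mdm2 rose. Refits that left out PBS replicate 2 (-0.43) or 3 (-0.24), or TNF replicate 2 (-0.38), 3 (-0.36) or 4 (-0.40), did not call it.

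Of 14 paralogues, Mdm4 included, 12 were tested, 3 were higher and 5 lower, or 66.7% called against 59.6% of all tested genes. Sesn3, a sestrin like Sesn1, fell from 81.8, 66.1 and 89.8 CPM to 19.6, 20.6, 24.7 and 23.1 CPM, changing by -1.85 ± 0.13 on the log2 scale (SE, edgeR adjusted p = 4.4e-08). Sesn2 had a log2 fold change of -0.41 (edgeR adjusted p = 0.077), and it was called without PBS replicate 3 (-0.55) or TNF replicate 4 (-0.53) and under scaling by total counts (-0.57). Ccng2, the paralogue of the falling Ccng1, was not called (0.23, edgeR adjusted p = 0.346). Phlda1 rose by 0.39 on the log2 scale (edgeR adjusted p = 0.00925) but was not called under scaling by total counts (0.23), and Phlda2 rose from 0.348 to 3.57 CPM on average (log2 fold change 3.33 ± 0.45, edgeR adjusted p = 2.28e-05).

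Isg20l2, a nuclease gene of the Aen family, rose by 1.12 on the log2 scale (edgeR adjusted p = 1.91e-06), and Isg20 was not called (-0.16, edgeR adjusted p = 0.702). Among the relatives of Zmat3, Zmat1 (-4.56) and Zmat5 (-0.70) fell and Zmat2 was not called (-0.20, edgeR adjusted p = 0.145; -0.36 and called under scaling by total counts), while Zmat4 was too low to test. Zmat5 lost its call without PBS replicate 1 (-0.52). Tnfrsf19, a receptor gene related to Eda2r and also in the stem cell marker list, fell by 0.81 on the log2 scale (edgeR adjusted p = 0.00481).

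Among 32 other genes described as p53 targets, 31 were tested, of which 13 rose, 10 fell and 8 did not pass the test. Their median log2 fold change was -0.05, the same as that of the 10 members, and it was above 0 without PBS replicate 1 (0.08), PBS replicate 3 (0.15) or TNF replicate 1 (0.07) and -0.17 without TNF replicate 2. As among the members, rises and falls stood side by side, and 74.2% of these genes were called against 59.6% of all tested genes.

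The largest rises were those of Fas, Plk3, Gdf15 and Pmaip1. Fas, a death receptor gene, went from 5.38, 4.43 and 3.87 CPM to 27.8, 39.4, 30.2 and 44.5 CPM, or by 2.96 ± 0.20 on the log2 scale (edgeR adjusted p = 3.6e-08). The kinase gene Plk3 rose by 2.96 ± 0.24 on the log2 scale (edgeR adjusted p = 1.58e-07), and Gdf15, which encodes a stress cytokine, by 2.78 ± 0.24 (edgeR adjusted p = 3.59e-07). Pmaip1 encodes NOXA, a BH3-only protein like PUMA, and rose from 15.3, 11.4 and 12 CPM to 46.7, 52, 54.7 and 67.1 CPM (2.10 ± 0.16, edgeR adjusted p = 8.06e-08). All 4 fitted changes were above that of Cdkn1a, a difference that was not tested.

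The largest falls, taking genes that averaged 5 CPM or more in either group, were those of Ptpn14 (log2 fold change -1.96), Fdxr (-1.60), Steap3 (-1.47) and Ddb2 (-1.43), with edgeR adjusted p of at most 0.00135. Ddb2 encodes a protein that recognizes ultraviolet damage in DNA, Fdxr a mitochondrial reductase, and Steap3 a metal reductase. The PBS libraries were uneven for Ddb2, at 5.01, 6.52 and 12.5 CPM. Its log2 fold change ran from -1.66 to -0.96 on leaving out 1 library in turn.

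Of 17 kinases and activators of p53, 16 were tested, 3 rose and 10 fell, with a median log2 fold change of -0.50. Over all tested genes, 29.5% were higher and 30.1% lower. The damage-sensing kinase gene Atm fell by 0.84 on the log2 scale (edgeR adjusted p = 0.000392), Prkdc by 1.26 (edgeR adjusted p = 9.83e-06) and the checkpoint kinase gene Chek2 by 1.52 (edgeR adjusted p = 3.62e-05). Chek2 had 12.2, 13.3 and 17.3 CPM after PBS and 5.71, 3.65, 6 and 4.45 CPM after TNF. Trp53bp1, which encodes a protein of the response to DNA breaks, fell by 0.92 (edgeR adjusted p = 2.65e-06). In contrast, Trp53bp2, which encodes ASPP2, a cofactor of p53 at death genes, rose by 1.02 (edgeR adjusted p = 1.28e-06) and the acetyltransferase gene Kat5 by 0.80 (edgeR adjusted p = 0.000643). Rpl5, a ribosomal protein gene whose product binds MDM2, rose by 0.32 (edgeR adjusted p = 0.0264), and its call did not hold without PBS replicate 2 (0.30), PBS replicate 3 (0.30) or TNF replicate 4 (0.21), or under scaling by total counts (0.15). Cdkn2a, which encodes the MDM2 inhibitor ARF, had 0 counts in every library.

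Of 12 genes whose products lower p53 activity, 2 rose, 6 fell and 4 did not pass the test, so that 66.7% were called, near the 59.6% of all tested genes. Ppp1r13l, which encodes the inhibitory cofactor iASPP, fell by 1.21 on the log2 scale (edgeR adjusted p = 2.78e-05) and the ubiquitin ligase gene Ube4b by 1.12 (edgeR adjusted p = 2.12e-06). The phosphatase gene Ppm1d fell by 0.66 (edgeR adjusted p = 0.0145). The ligase gene Cop1 fell by 0.47 (edgeR adjusted p = 0.0172), a call lost without PBS replicate 2 (-0.45), PBS replicate 3 (-0.42) or TNF replicate 2 (-0.41). The deubiquitinase gene Usp7 (0.33) and the ligase gene Rchy1 (0.43) rose (edgeR adjusted p = 0.00861 and 0.00728), and neither was called under scaling by total counts (0.17 and 0.26). The number of falls in this list was 3 without PBS replicate 2 or without TNF replicate 2.

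Of 6 other inhibitors of cyclin-dependent kinases tested, 4 fell, 1 rose and 1 was not called, where 30.1% of all tested genes fell and 29.5% rose. Cdkn1b, which encodes p27, fell from 113, 119 and 106 CPM to 71.5, 73.1, 75.3 and 75.3 CPM (log2 fold change -0.61 ± 0.09, edgeR adjusted p = 6.4e-05). Cdkn1c (-1.29) and Cdkn2c (-1.49) also fell (edgeR adjusted p = 0.00159 and 0.00125). The remaining fall in this count was that of Cdkn3 (-1.47, edgeR adjusted p = 0.00595), at 3.51 CPM after PBS and 1.25 CPM after TNF on average. Cdkn2b rose by 0.50 (edgeR adjusted p = 0.0251), a call that ended on leaving out PBS replicate 2 (0.43) or 3 (0.44) or TNF replicate 3 (0.43) or 4 (0.46), and with scaling by total counts (0.35).

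Of 6 BH3-only genes tested beside Bbc3, Pmaip1, Bik and Bid rose, Bmf fell, and Bcl2l11 and Bad were not called. This share of 66.7% is also near the 59.6% of all tested genes. Bid, which encodes the protein that links death receptors to mitochondria, rose from 6.43 to 11.6 CPM on average (log2 fold change 0.85 ± 0.17, edgeR adjusted p = 0.00076), and Bik rose by 2.06 ± 0.33 on the log2 scale (edgeR adjusted p = 9.76e-05). Bmf went from 24.6 to 9.61 CPM on average (-1.36 ± 0.15, edgeR adjusted p = 3.07e-06). Hrk had 0 counts in every library.

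Genes of the cell cycle that are known to be repressed through p21 and the DREAM complex were largely lower. Of 18 genes, 14 fell and 3 rose (94.4% called, against 59.6% of all tested genes), with a median log2 fold change of -1.01, while Cdk1 was not called (-0.12, edgeR adjusted p = 0.428). The proliferation marker Mki67 fell from 188, 172 and 190 CPM to 65.8, 53, 90.5 and 59.6 CPM (-1.45 ± 0.15, edgeR adjusted p = 3.42e-06), and Ccnb2, Birc5 and Plk1, which act in mitosis, fell by 1.73, 1.5 and 1.41 on the log2 scale. The risers were Mybl2 (0.94), the nucleotide synthesis gene Rrm2 (0.86) and the replication gene Mcm2 (0.28), of which Mcm2 lost its call without PBS replicate 1 (0.25) or 2 (0.27) or TNF replicate 3 (0.25) or 4 (0.24), under scaling by total counts (0.10) and with no filter on low counts (0.28). Stem cell markers, which mark cycling crypt cells, were lower in the same libraries, with the summed levels given above, and their part in this fall was not tested.

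**Figure D4:**
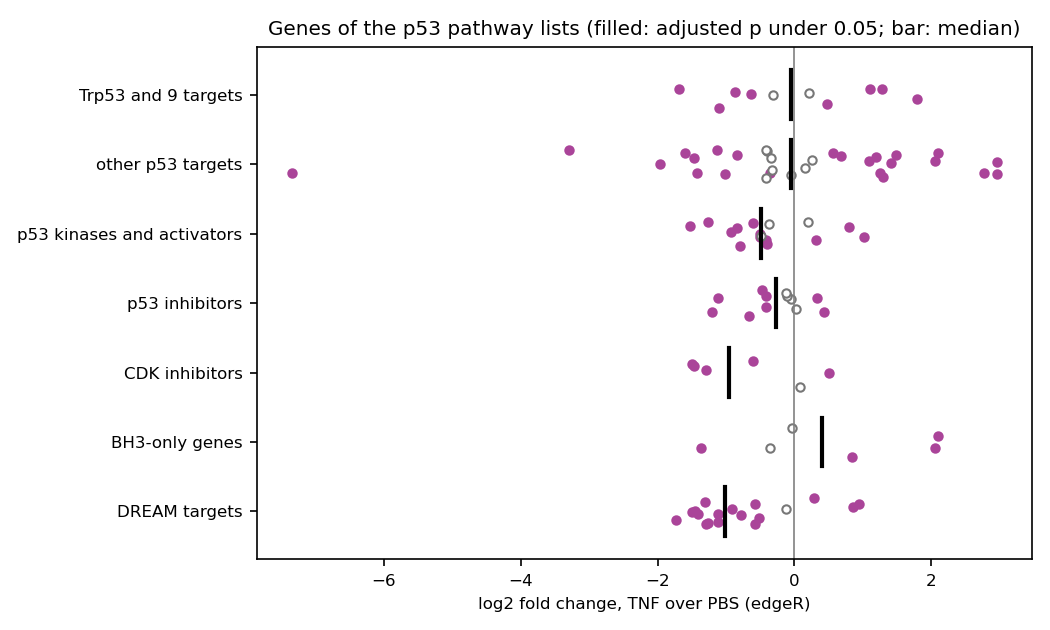
Log2 fold change (TNF over PBS, x axis) of every tested gene in 7 lists of the p53 pathway, 1 point per gene, filled where the edgeR adjusted p is under 0.05, with black bars at list medians. The DREAM targets lie mostly left of 0 with a median of -1.01, and the far-left point among other p53 targets is Trp53cor1, whose fitted value rests on 1 count over the TNF libraries.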

How the data were processed

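Raw read counts per gene were deposited by the authors as 1 table of 55414 Ensembl identifiers, not normalized. The submitters' processing notes name FastQC, Trimmomatic 0.39, STAR 2.7.10a and DESeq2, and the builds mm10 and mm39 without a role. For the annotation, the counting program and whether strand was used, nothing is stated in these sources. RNA came from a column kit, and single-end reads from an Element AVITI sequencer. Symbols and gene coordinates came from GENCODE M39 (GRCm39), which holds 54749 of the identifiers, and promoters from RefSeq (GRCm38.p6).

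Counts were filtered with filterByExpr, scaled by TMM and fitted with edgeR 4.0.16 (R 4.3.3, robust quasi-likelihood test) on 3 PBS and 4 TNF libraries without covariates. P-values were Benjamini-Hochberg adjusted over 14329 genes, and genes under 0.05 were called. The pipeline was tested on simulated counts. Alternatives were other scalings (DESeq2 size factors, total counts only, TMM without alpha-defensins and Lyz1), no filter, at least 1 CPM in 3 libraries, DESeq2 1.42.0, a replicate block and leaving out each library. Total counts per library were 15511455 to 19193721. Intervals and floors cover counting error only.

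Members and gene lists were chosen with earlier results of these data known. Beside the members, Mdm4, Trp63, Trp73 and the paralogues, named genes were up to 4 rises and 4 falls per list, the largest among called genes averaging 5 CPM or more in 1 group. The 3 genes most like Trp53 were taken from those averaging 10 CPM or more. Replicate pairs of a group differed by more than counting noise (chi-square over its degrees of freedom, 16.7 to 68.8), so none was merged.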

Additional observations from a re-analysis of the deposited data

Results flagged for a closer look

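Of 64 sets of TNF values examined, 2 had a highest library far from the others, with a gap of 1.0 times the whole range in each. Some flags of this kind arise by chance. The Zmat4 value rests on 2 counts in TNF replicate 2 and 0 in the other TNF libraries. The Trp53cor1 value rests on 1 count in TNF replicate 1 and 0 in the other TNF libraries.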

How the results depend on the processing

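Over 14 alternatives, 138 of 140 values of the members kept their direction and side of the threshold, and none reversed. When libraries were scaled by total counts only, the median of all genes was -0.16, and 3142 genes were called higher and 4614 lower, against 4229 and 4314. Under it Aen (0.29) lost its call and Bbc3 (-0.48) gained one. The list medians became -0.2 (other p53 targets), -0.66 (kinases and activators), -0.42 (inhibitors), -1.1 (CDK inhibitors), 0.24 (BH3-only genes) and -1.18 (DREAM targets), and 0 inhibitors and 0 CDK inhibitors were higher. The labels do not say whether the replicate numbers pair the libraries. Correlations of same-numbered libraries were -0.398, -0.0473 and -0.227. They were taken after centring within each small group, which pulls such values below 0, so they do not settle the pairing. With the replicate block, 3553 genes were higher and 3578 lower over all genes, and 0 inhibitors and 0 CDK inhibitors were higher, 3 inhibitors lower and 3 paralogues lower. Mdm4, Zmat5, Rpl5, Rchy1, Usp7, Cop1, Cdkn2b, Mcm2 and Traf3 were not called with it. Leaving out 1 library in turn gave a median of -0.17 to 0.15 for other p53 targets, 3 to 6 inhibitors lower and 0 to 1 CDK inhibitors higher, the 0 without PBS replicate 2 or 3 or TNF replicate 3 or 4. Isg20, not called, reversed to 0.13 without PBS replicate 1, within a range of -0.38 to 0.13. The cause of these changes was not tested. Of 882 values of all 63 named genes tested, 831 kept their call and direction, 45 lost a call, 5 gained one and 1 reversed. Depth limits Phlda3 most among the members, at 68 counts in its lowest library.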

Other observations

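The neighbourhood of Cdkn1a held a pair of long noncoding RNA genes known from the p53 response, named here after their values were seen. Trp53cor1 (lincRNA-p21, ENSMUSG00000085912, GRCm39 chr17:29233594-29298284, minus strand) has its 5′ end 11652 bases upstream of the Cdkn1a start. It had 74, 60 and 54 counts in the PBS libraries and 1, 0, 0 and 0 counts in the TNF libraries. Per library size it was 237 times higher after PBS, with a 95% exact Clopper-Pearson interval of 41.9 to 9390 that covers counting error only. Without TNF replicate 1, the TNF libraries held 0 counts against 188 in the PBS libraries, and the lower 95% limit of the ratio was 47. Leaving out any other library gave lower limits from 30.5 (without TNF replicate 3) to 45.4 (without PBS replicate 3). The fold fitted by edgeR was 162. Of its annotated exon bases, 19.8% are shared with the opposite-strand gene Gm41556 and 3.09% with Srsf3.

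Dino (ENSMUSG00000117050, GRCm39 chr17:29312390-29313435, minus strand) lies within Cdkn1a on the opposite strand and shares 504 exon bases with it. It had 0, 0 and 4 counts after PBS and 7, 10, 15 and 13 counts after TNF, and did not pass the filter on low counts. Fitted without that filter, its log2 fold change was 3.07 ± 1.11 (SE, edgeR adjusted p = 0.017). Since the use of strand is not known, its reads cannot be fully told apart from those of Cdkn1a.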
